A study of Mus musculus with 10 samples.

Results

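The 10 genes Fn1, Tnc, Sparc, Thbs1, Thbs2, Vcan, Bgn, Lox, Loxl1 and Loxl2, which encode noncollagen proteins of the extracellular matrix and enzymes that crosslink it, were taken by their symbols from the 37417 genes counted in subcutaneous (s.c.) Panc02 tumors. Panc02 is a mouse pancreatic cancer cell line. Bulk RNA-seq had been done on 5 tumors whose cancer cells carried a nontargeting guide RNA (sgNT) and on 5 whose cancer cells carried a guide against Cda, the gene for the pyrimidine salvage enzyme cytidine deaminase (sgCda). All tumors grew in one flank of wild-type C57BL/6J mice aged 12 weeks and were collected 16 days after injection. The edit is in the injected cells, whereas the RNA is from whole tumor tissue, which mixes cancer and host cells.

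The extracellular matrix is the protein and sugar network between cells. Fibronectin (Fn1) is assembled into fibrils that cells grip through integrins, matricellular glycoproteins such as the thrombospondins, tenascin C and SPARC modulate how cells attach to it, and proteoglycans fill and organize it. Lysyl oxidases crosslink collagen and elastin fibers and thereby stiffen the tissue, and a dense matrix, made largely by fibroblasts, is a known feature of pancreatic cancer.

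Libraries held 28051907 to 39484964 counts assigned to genes, and all 10 genes passed the expression filter of the 15299 genes tested. The library labelled sgCda replicate 4 stood apart, with the fewest assigned counts and 18.4% of uniquely aligned reads on no counted gene feature. Its mitochondrial share was 5.82%, against 3.47% to 3.81% in the other 9 libraries. Cda itself was at 12.1 ± 1.76 counts per 1000000 assigned counts (CPM) with sgNT and at 9.77 ± 2.34 CPM with sgCda (mean ± SD over 5 tumors each; edgeR, adjusted p = 0.9996), with overlapping values, so its transcript level gave no check of the guide labels. Fibroblast markers (12 genes, 3504 to 7557 summed CPM), macrophage markers (9 genes, 3193 to 4570) and carcinoma markers (8 genes, 613 to 1091) were present in every tumor, whereas the 6 pancreatic acinar markers summed to 1.13 to 3.05 CPM. The 8 skeletal muscle markers ranged from 6.54 to 515.5 summed CPM in sgNT and from 6.39 to 2094 in sgCda tumors. The 8 T cell markers ranged from 264 to 426 summed CPM (median 290) in sgNT and from 188 to 644 (median 295) in sgCda tumors. Their highest tumor was sgCda replicate 3 and their lowest sgCda replicate 5. Fitted levels in sgCda tumors were higher for 8 of 8 muscle and 8 of 8 T cell markers and lower for 6 of 6 pericyte markers. They were also lower for 6 of 8 endothelial (median log2 fold change −0.19) and 6 of 9 macrophage markers (median −0.011). Across all genes 47.1% were lower, and each of these lists had 0 markers at an unadjusted p under 0.05 in edgeR.

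Promoter sequences are shown for Thbs2 and Vcan, whose levels moved together between tumors, and for Bgn, which had no related pair. They run 5′ to 3′ on the gene's strand from 250 bases before to 50 bases after the start site (RefSeq, GRCm38.p6), at chr17:14694213-14694512 (minus strand), chr13:89742463-89742762 (minus strand) and chrX:73483351-73483650 (plus strand). Capitals mark every match, on either strand, to the motifs TATAAA (the TATA box), CCAAT (the CCAAT box), GGGCGG (the GC box), TGANTCA (bound by AP-1) and GGAATG (bound by TEAD factors).
Thbs2: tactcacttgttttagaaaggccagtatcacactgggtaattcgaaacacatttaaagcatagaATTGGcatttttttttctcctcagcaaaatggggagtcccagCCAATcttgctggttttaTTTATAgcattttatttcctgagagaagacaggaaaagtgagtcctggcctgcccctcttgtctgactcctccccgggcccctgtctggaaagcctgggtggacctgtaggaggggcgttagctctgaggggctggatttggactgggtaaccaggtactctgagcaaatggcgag
Vcan: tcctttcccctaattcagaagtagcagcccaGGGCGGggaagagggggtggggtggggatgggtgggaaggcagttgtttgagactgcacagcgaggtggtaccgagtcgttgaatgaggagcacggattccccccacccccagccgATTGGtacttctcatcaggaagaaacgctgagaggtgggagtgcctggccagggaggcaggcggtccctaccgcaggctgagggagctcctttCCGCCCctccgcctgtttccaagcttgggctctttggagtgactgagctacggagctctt
Bgn: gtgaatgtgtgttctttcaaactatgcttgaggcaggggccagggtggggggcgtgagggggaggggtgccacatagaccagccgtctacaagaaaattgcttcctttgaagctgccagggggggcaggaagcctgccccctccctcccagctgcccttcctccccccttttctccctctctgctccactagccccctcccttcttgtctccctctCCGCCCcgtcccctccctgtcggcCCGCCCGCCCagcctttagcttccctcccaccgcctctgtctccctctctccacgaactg

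The Thbs2 window held CCAAT on each strand and TATAAA on the opposite strand, the Vcan window held GGGCGG on each strand and CCAAT on the opposite strand, and the Bgn window held 3 matches to GGGCGG, of which 2 overlap. None of the 3 windows held TGANTCA or GGAATG. Across 32851 mouse promoters, 13.6% held TATAAA, 37.4% CCAAT, 35.7% GGGCGG, 7.81% TGANTCA and 14.7% GGAATG. The GC content was 48.3% for Thbs2, 61.0% for Vcan and 63.7% for Bgn. These matches describe letters in the windows and are not evidence of a bound factor.

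Each of the 10 genes is protein coding (GRCm38, positions from GENCODE). Fn1 (ENSMUSG00000026193) lies at chr1:71585520-71653200, Tnc (ENSMUSG00000028364) at chr4:63959785-64047015, Sparc (ENSMUSG00000018593) at chr11:55394500-55423183 and Thbs1 (ENSMUSG00000040152) at chr2:118111876-118127133. Thbs2 (ENSMUSG00000023885) lies at chr17:14665500-14694235, Vcan (ENSMUSG00000021614) at chr13:89655312-89742509 and Bgn (ENSMUSG00000031375) at chrX:73483602-73495933. The lysyl oxidase genes Lox (ENSMUSG00000024529), Loxl1 (ENSMUSG00000032334) and Loxl2 (ENSMUSG00000034205) lie at chr18:52516067-52529867, chr9:58287738-58313186 and chr14:69609068-69695834. Of these, Fn1, Tnc, Thbs1, Lox and Loxl2 share 30 to 301 exonic bases with a gene on the opposite strand, and as the strand setting of the counting was not stated, reads there could not be told apart.

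To place the genes on one scale, CPM was divided by the exonic length of each gene, and neighbours in the resulting order were compared within tumors by a two-sided exact sign-flip permutation test, adjusted over the 9 neighbouring pairs. Fn1 stood highest, at 481 ± 121 CPM per kilobase (mean ± SD, n = 10), followed by Sparc at 314 ± 60.9 and Thbs1 at 183 ± 12.0. Bgn stood at 77.4 ± 18.4 and Loxl1 at 18.6 ± 3.04. The lower part of the order was Lox at 8.95 ± 4.77, Tnc at 8.92 ± 3.31, Thbs2 at 7.48 ± 4.16, Loxl2 at 3.39 ± 1.80 and Vcan at 0.804 ± 0.283. Neighbours differed for 7 of the 9 pairs, with adjusted exact permutation p of 0.0126 for Fn1 over Sparc and 0.00586 or less for the other 6. The length joins all annotated exons of a gene and is the same in every tumor. The test therefore measures how steady the order was between tumors and cannot address an error in length. Lox and Tnc did not differ beyond their spread (exact permutation p = 0.760), nor did Tnc and Thbs2 (mean log2 difference 0.49, SD 1.01, exact permutation p = 0.0547, adjusted 0.0615). Fn1 ranked 3rd by mean CPM of all tested genes, and the 10 genes together took 0.586% to 1.09% of all assigned counts.

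**Figure D1:**
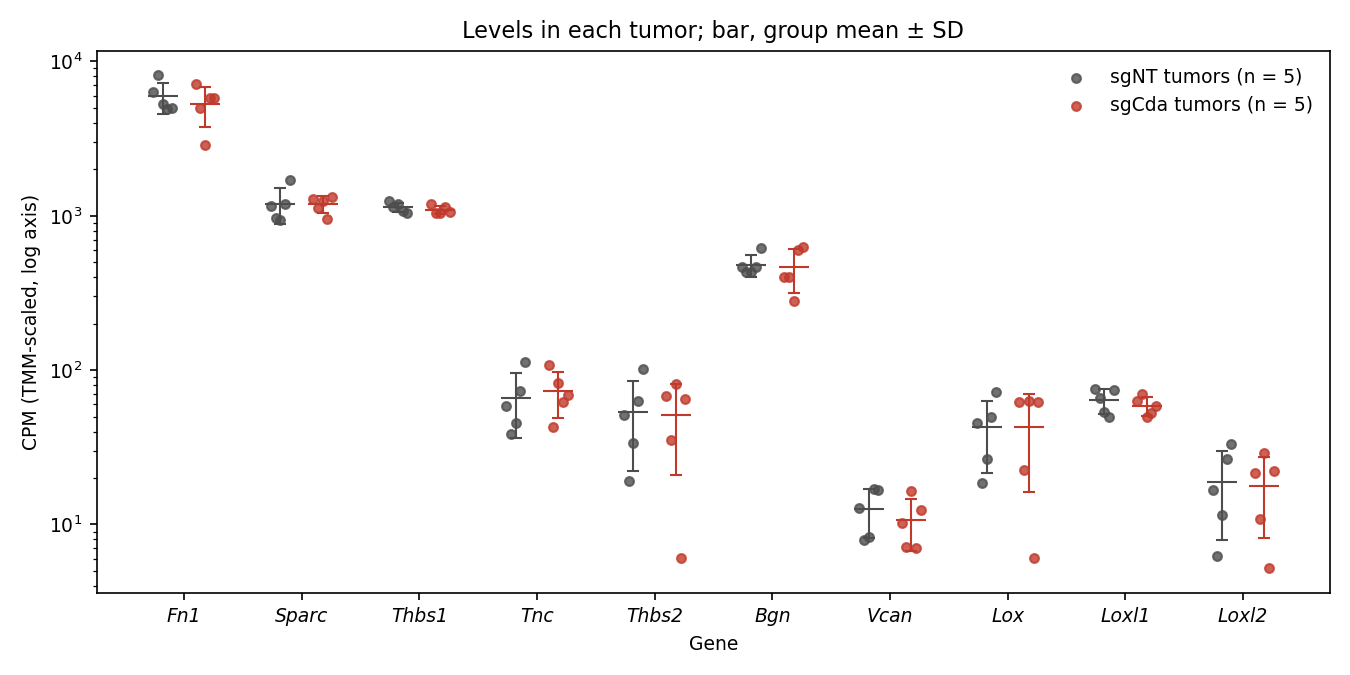
Level of each gene in each of the 10 tumors, in TMM-scaled CPM on a log axis, with the group mean and SD (n = 5 per group; sgNT in grey, sgCda in red). In every gene the 2 groups overlap, and the lowest points of Thbs2 and Lox, 6.02 CPM each, are both sgCda replicate 4.

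To ask whether targeting Cda in the cancer cells altered the matrix genes, sgCda was compared with sgNT tumors. No change was detected in any of the 10 genes. With edgeR's quasi-likelihood test 0 of the 10 had an adjusted p under 0.05 (adjusted p = 0.9996 for each), where 0% of all genes passed, and 0 had an unadjusted p under 0.05, where 2.5% of all genes did, 1.54% higher and 0.954% lower in sgCda tumors. DESeq2 and limma-voom also gave 0 of the 10 at either threshold. The 2 groups overlapped in all 10 genes, whereas 0.601% of all genes had groups that did not overlap. Fitted log2 fold changes, sgCda minus sgNT, were below 0 in 8 of the 10, beside 47.1% of all genes, and their median was −0.067, beside 0.0078 over all genes. The split moved with single tumors: 0 of the 10 values were above 0 without sgNT replicate 2 or sgCda replicate 1, 5 without sgCda replicate 2 or 4, and 6, with a median of 0.11, without sgNT replicate 5.

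Among the structural and matricellular glycoproteins, Fn1 is the most abundant. In sgNT tumors it was at 6361, 8120, 5332, 4934 and 4963 CPM in the order of the replicate numbers, and in sgCda tumors at 7103, 4977, 2875, 5772 and 5819 CPM. Replicate 3 of the sgCda tumors lay below every other tumor, and the other 4 sgCda values were inside the sgNT range. The fitted change on the log2 scale was −0.16 with an SE of 0.23 (edgeR, adjusted p = 0.9996), and its 95% interval of −0.67 to 0.34 spans a change of −37.1% to 26.9%. The value was −0.0063 without sgCda replicate 3 and −0.027 without sgNT replicate 2.

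Thbs1 encodes thrombospondin 1, a secreted glycoprotein that binds CD47 and CD36 and can activate latent TGFβ. It was at 1238, 1136, 1185, 1077 and 1043 CPM in sgNT tumors and at 1185, 1035, 1042, 1146 and 1056 CPM in sgCda tumors. This was the steadiest of the 10 genes, with a highest tumor 1.20 times the lowest, a ratio smaller than that of all but 6.62% of the tested genes. Its estimate on the log2 scale was −0.056 with an SE of 0.078, and its 95% interval ran from −0.23 to 0.11, which spans a change of −14.6% to 8.29%.

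Thbs2, the gene for the related thrombospondin 2, was by contrast among the most variable. It was at 51.5, 19.0, 33.8, 63.1 and 101 CPM in sgNT tumors and at 67.6, 35.4, 81.2, 6.02 and 64.5 CPM in sgCda tumors. The highest tumor was 16.8 times the lowest, a ratio larger than in 97.7% of the tested genes, with the highest in the sgNT and the lowest in the sgCda group. Its fitted change on the log2 scale was −0.078, with an SE of 0.58 and a 95% interval from −1.35 to 1.19, which spans a change of −60.7% to 128.5%. The value was 0.21 without sgCda replicate 4 and 0.28 without sgNT replicate 5.

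Sparc, the gene for a collagen-binding glycoprotein, was at 1156, 968, 934, 1189 and 1714 CPM in sgNT tumors and at 1285, 1125, 1246, 958 and 1323 CPM in sgCda tumors. The sgNT tumors held both the highest and the lowest value, and the estimate on the log2 scale was −0.0058 with an SE of 0.16, and its 95% interval ran from −0.37 to 0.36. Tnc, the gene for tenascin C, a glycoprotein that loosens adhesion to fibronectin, was at 58.4, 38.7, 45.8, 73.0 and 114 CPM in sgNT tumors and at 108, 42.9, 82.1, 62.4 and 68.6 CPM in sgCda tumors. Here too the sgNT tumors held both extremes. The log2 fold change of Tnc, 0.14 (SE 0.30, 95% CI −0.52 to 0.81), was the largest positive value of the 10.

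Of the proteoglycans, Vcan encodes versican, which binds hyaluronan. It was at 12.8, 7.90, 8.28, 17.02 and 16.8 CPM in sgNT tumors and at 10.3, 7.12, 16.6, 7.05 and 12.5 CPM in sgCda tumors, and only sgCda replicate 3 was above the mean of the sgNT group. Its log2 fold change of −0.23 (SE 0.29, 95% CI −0.87 to 0.41) was the most negative of the 10 and smaller than its standard error. Bgn, the gene for the small leucine-rich proteoglycan biglycan, was at 463, 431, 430.5, 464 and 619.6 CPM in sgNT tumors and at 404, 401, 280.5, 602 and 628 CPM in sgCda tumors. The sgCda tumors split to both sides of 4 of the sgNT tumors, and the fitted change on the log2 scale was −0.057, with an SE of 0.20 and a 95% interval from −0.51 to 0.39.

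Among the lysyl oxidases, Lox encodes the founding enzyme of the family. It was at 45.5, 18.5, 26.6, 49.8 and 72.1 CPM in sgNT tumors and at 62.1, 22.6, 62.6, 6.02 and 62.0 CPM in sgCda tumors. In the sgCda group 3 tumors lay within 1 CPM of each other and replicate 4 lay 10.4-fold below the highest. Its estimate on the log2 scale was 0.020 with an SE of 0.55, and its 95% interval ran from −1.19 to 1.23. The value was 0.30 without either sgCda replicate 4 or sgNT replicate 5.

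Loxl2 encodes a lysyl oxidase with scavenger receptor domains and was at 16.8, 6.29, 11.5, 26.7 and 33.1 CPM in sgNT tumors and at 21.4, 10.9, 29.2, 5.21 and 22.2 CPM in sgCda tumors. As with Lox, the lowest tumor was sgCda replicate 4 and the highest sgNT replicate 5, and the fitted change on the log2 scale was −0.089, with an SE of 0.49 and a 95% interval from −1.17 to 0.99. Loxl1, whose product is tied to elastic fibers, was at 75.8, 66.0, 53.8, 49.8 and 74.6 CPM in sgNT tumors and at 63.0, 70.2, 49.5, 52.4 and 58.6 CPM in sgCda tumors. Its range was narrow, with a highest tumor 1.53 times the lowest, and its estimate on the log2 scale was −0.12 with an SE of 0.14, and its 95% interval ran from −0.42 to 0.18. For Lox and Loxl2 the highest tumors were 12.0 and 6.37 times their lowest.

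**Figure D2:**
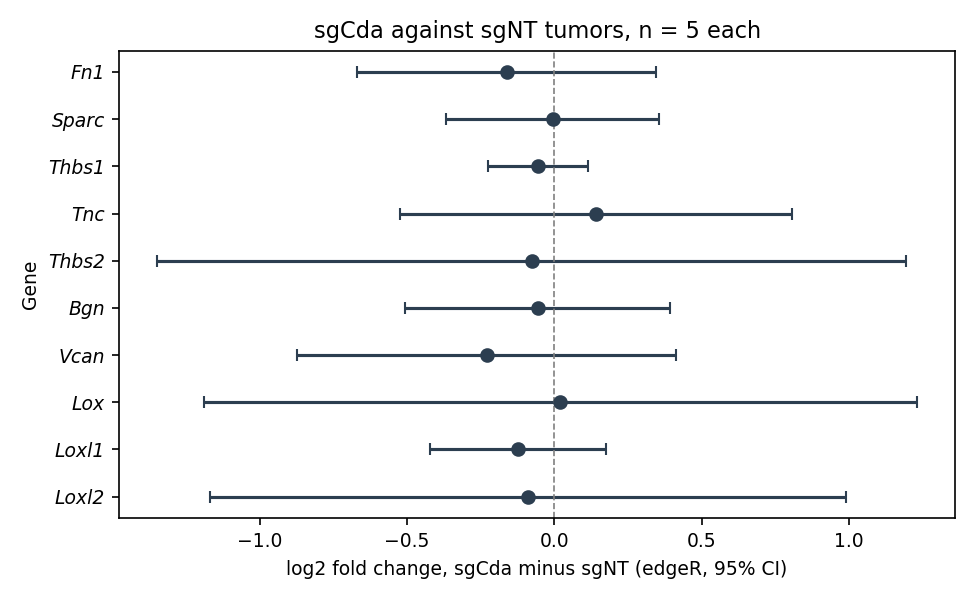
Log2 fold change of each gene, sgCda minus sgNT, from edgeR's quasi-likelihood fit (points) with its 95% confidence interval (lines), for 5 tumors per group. Every interval crosses 0, and the intervals run from −0.23 to 0.11 for Thbs1 to −1.35 to 1.19 for Thbs2.

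The spread between tumors was next examined within the 10 genes, whatever the guide. Of the 45 pairs of genes, 8 were related across the 10 tumors, with both Pearson's r and Spearman's rho of log2 CPM at an adjusted permutation p under 0.05 over the 45 pairs. All 8 lay within Thbs2, Lox, Loxl2, Vcan, Sparc and Tnc, which were grouped here after their values were seen, so the group as such was not tested. The closest pair was Thbs2 and Lox (r = 0.99, rho = 0.99, adjusted permutation p = 0.0006 and 0.0009), followed by Thbs2 and Loxl2 (r = 0.95, rho = 0.94) and Lox and Loxl2 (r = 0.94, rho = 0.95). The tumors sgCda replicate 4 and sgNT replicate 2 were the tumors farthest from the median of the first gene in these 3 pairs, and without them r was 0.95, 0.97 and 0.93. Vcan followed Loxl2 (r = 0.90, rho = 0.92, adjusted permutation p = 0.00461 and 0.00486), and without the farthest tumors, sgCda replicates 2 and 4, r was 0.89.

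The other 4 related pairs were Vcan with Lox (r = 0.81) and with Thbs2 (r = 0.79), and Sparc with Loxl2 (r = 0.83) and with Tnc (r = 0.80), with adjusted permutation p of 0.0106 to 0.0243 for r and 0.0243 to 0.0457 for rho. Without the 2 tumors farthest from the median of Vcan, Thbs2, Sparc and Tnc, r was 0.79, 0.85, 0.92 and 0.64 in that order. For Sparc with Loxl2 this kept sgCda replicate 4, and without that tumor alone r was 0.81. Another 5 pairs passed for rho only. They were Sparc with Thbs2 (r = 0.78, rho = 0.92) and with Lox (r = 0.77, rho = 0.88), with adjusted permutation p for rho of 0.00486 and 0.0124 against 0.0504 for r in both. The others were Tnc with Thbs2 (r = 0.57, rho = 0.84), with Lox (r = 0.60, rho = 0.85) and with Loxl2 (r = 0.74, rho = 0.81), with adjusted permutation p for rho of 0.0202, 0.0156 and 0.0314. In all 15 pairs within the 6 genes r was positive, from 0.57 to 0.99, and without sgCda replicate 4 it ran from 0.68 to 0.99. Within the sgNT tumors alone the lowest r of these 15 pairs was 0.83 and within the sgCda tumors 0.41, over 5 tumors each and given without a test. The tumor sgNT replicate 5 was the highest for Sparc, Lox, Thbs2, Loxl2 and Tnc, and r within the sgNT tumors was not computed without it.

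Fn1, Thbs1, Bgn and Loxl1 had no related pair with these 6 genes. Across the 24 pairs between both sets r ran from −0.49 to 0.35, and 0 of them passed the adjusted threshold (smallest adjusted permutation p for r = 0.370). For Bgn the pooled values covered opposite signs in the 2 groups, over 5 tumors each and with no test of the difference. Its r with the 6 genes ran from 0.70 with Vcan to 0.98 with Sparc within the sgNT tumors, and from −0.54 with Thbs2 to −0.23 with Tnc within the sgCda tumors. There was also no related pair among the 4, the closest being Fn1 and Thbs1 (r = 0.59, rho = 0.60, adjusted permutation p = 0.185 and 0.206). The thrombospondin genes Thbs1 and Thbs2 had r = −0.32 and rho = −0.39 (adjusted permutation p = 0.657 and 0.494), and Loxl1 and Loxl2 had r = 0.0098 and rho = −0.12 (adjusted permutation p = 0.978 and 0.855). The number of related pairs ranged from 4 to 11 when a tumor was left out. It was 4 without sgNT replicate 1, sgNT replicate 2 or sgCda replicate 2, and 5 without sgNT replicate 5 or sgCda replicate 3.

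**Figure D3:**
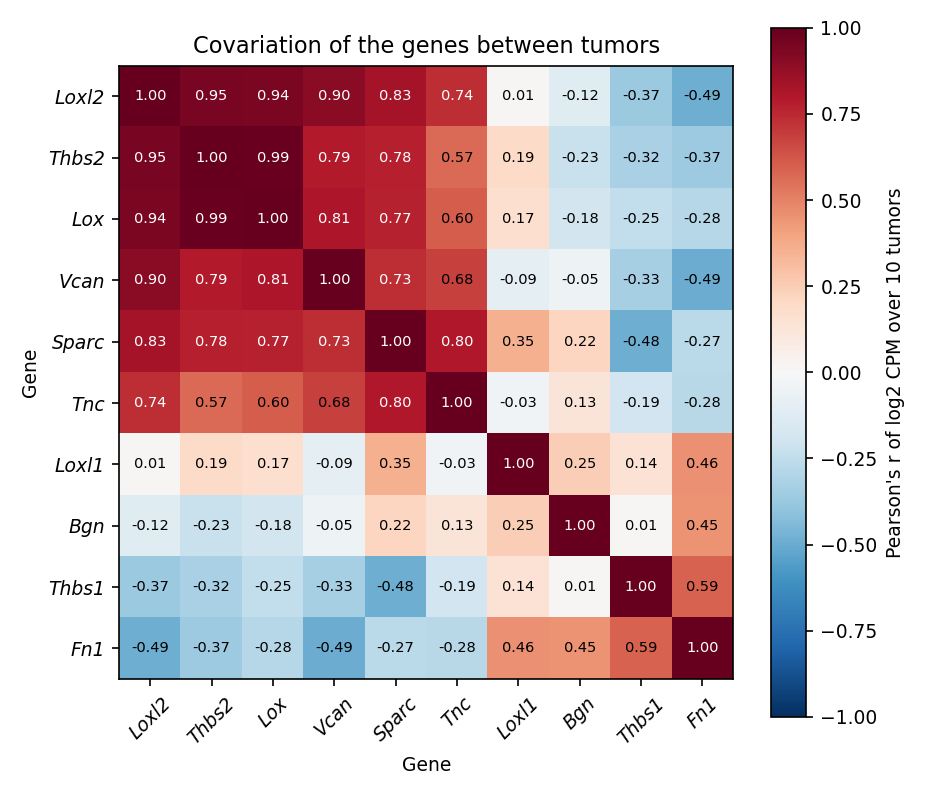
Pearson's r of log2 CPM between each pair of the 10 genes over the 10 tumors, printed in each cell and coloured from −1 (blue) to 1 (red), with genes ordered by the leading eigenvector of the matrix. The upper left block of Loxl2, Thbs2, Lox, Vcan, Sparc and Tnc holds r of 0.57 to 0.99, whereas their r with Loxl1, Bgn, Thbs1 and Fn1 runs from −0.49 to 0.35.

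For each gene the nearest patterns were also sought among the 13333 other genes with a mean of at least 1 CPM, as a description over the same 10 tumors. Nearest to Thbs2 were Lrrc15, a membrane protein of fibroblasts, Col5a2, a fibrillar collagen chain, and Sulf1, a heparan sulfate sulfatase (r = 0.99 for each), and nearest to Lox were Col5a2, Thbs2 itself and the collagen chain gene Col1a2 (r = 0.98 to 0.99). Loxl2 lay nearest to Mmp23, Colec12 and the receptor gene Ror2 (r = 0.98 to 0.99). More than 100 genes reached r over 0.9 with each of these 3, namely 164 for Thbs2, 102 for Lox and 136 for Loxl2. All 3 genes were lowest in sgCda replicate 4, at 6.02, 6.02 and 5.21 CPM. These r and counts were not computed without that library, so its weight in them was not tested.

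Sparc lay nearest to Ppic, a cyclophilin of the secretory pathway, Mfap4 and Aebp1 (r = 0.94 to 0.97). For Tnc the nearest were Creb3l1, a membrane-bound transcription factor, Dclk1 and Mfap5 (r = 0.91 to 0.96), and for Vcan they were Aplnr, the apelin receptor gene, Ldb2 and Msantd3 (r = 0.94 to 0.95). Fn1 had another set of neighbours, among them Fndc3b and Diaph2 (r = 0.98 for each), with 170 genes over 0.9. Fn1 was lowest in sgCda replicate 3, at 2875 CPM, and the weight of that tumor in these r was not tested. Bgn lay nearest to Gm12606, the circadian factor gene Dbp and the Notch target Hes1 (r = 0.93 to 0.98). For Thbs1 they were Map3k14, Suco and Abtb2 (r = 0.86 to 0.91), and for Loxl1 they were Pgap3, Zfp282 and Ttyh3 (r = 0.94 for each). Genes with r over 0.9 numbered 2 for Thbs1, 4 for Tnc, 8 for Bgn, 10 for Loxl1, 14 for Sparc and 34 for Vcan. All nearest genes, here and for Thbs2, Lox and Loxl2, were picked for a high r from 13333 others. The r that such picking reaches among unrelated genes was not computed, so being named is not evidence of a relation.

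Marker levels of cell types were then set beside the genes, since in bulk tissue fewer cells of a type and less RNA per cell cannot be told apart. Over 60 relations between the 10 genes and 6 marker lists, 3 passed for both r and rho. Sparc followed the fibroblast markers (r = 0.92, rho = 0.90, adjusted permutation p = 0.0120 and 0.0255; r = 0.90 without sgCda replicate 4 and sgNT replicate 5, the tumors farthest from the median). Vcan followed the endothelial markers (r = 0.91, rho = 0.90, adjusted permutation p = 0.0153 and 0.0255), and so did Loxl2 (r = 0.84, rho = 0.87, adjusted permutation p = 0.0312 and 0.0432). Without sgCda replicates 2 and 4, the farthest tumors, r was 0.85 and 0.81. With 9 tumors, 0 of the 60 relations passed in 8 of the 10 fits, those without any one of the sgNT tumors or without sgCda replicate 1, 2 or 4. The count was 5 without sgCda replicate 3 and 4 without sgCda replicate 5.

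Thbs2, Lox and Loxl2 followed the fibroblast markers by r (0.87, 0.87 and 0.85; adjusted permutation p = 0.0120, 0.0120 and 0.0214) but not by rho (0.81, 0.77 and 0.72; adjusted permutation p = 0.0842, 0.0936 and 0.109). Without sgCda replicate 4 and sgNT replicate 5 r was 0.73, 0.77 and 0.70. Thbs2 also followed the endothelial markers by r (0.75, adjusted permutation p = 0.0447) but not by rho (0.77, adjusted permutation p = 0.0936), and r was 0.78 without sgCda replicates 2 and 4. Fn1 had no relation to the fibroblast markers that passed (r = −0.068, rho = −0.042, adjusted permutation p = 0.929 and 0.973), nor did Thbs1 (r = −0.30, rho = −0.21, adjusted permutation p = 0.694 and 0.802). For the skeletal muscle markers, which varied most between tumors, the strongest relation was that of Bgn (r = −0.71, rho = −0.67, adjusted permutation p = 0.0906 and 0.130). For the macrophage markers the strongest were those of Fn1 (r = −0.71, rho = −0.67, adjusted permutation p = 0.0906 and 0.130) and Bgn (r = −0.71, rho = −0.61, adjusted permutation p = 0.0906 and 0.203). None of these relations passed. The 12 fibroblast markers include the collagen chain genes Col1a1, Col1a2 and Col3a1. Of the 12, 8 had a log2 fold change below 0 between groups, beside 47.1% of all genes, with a median of −0.058.

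**Figure D4:**
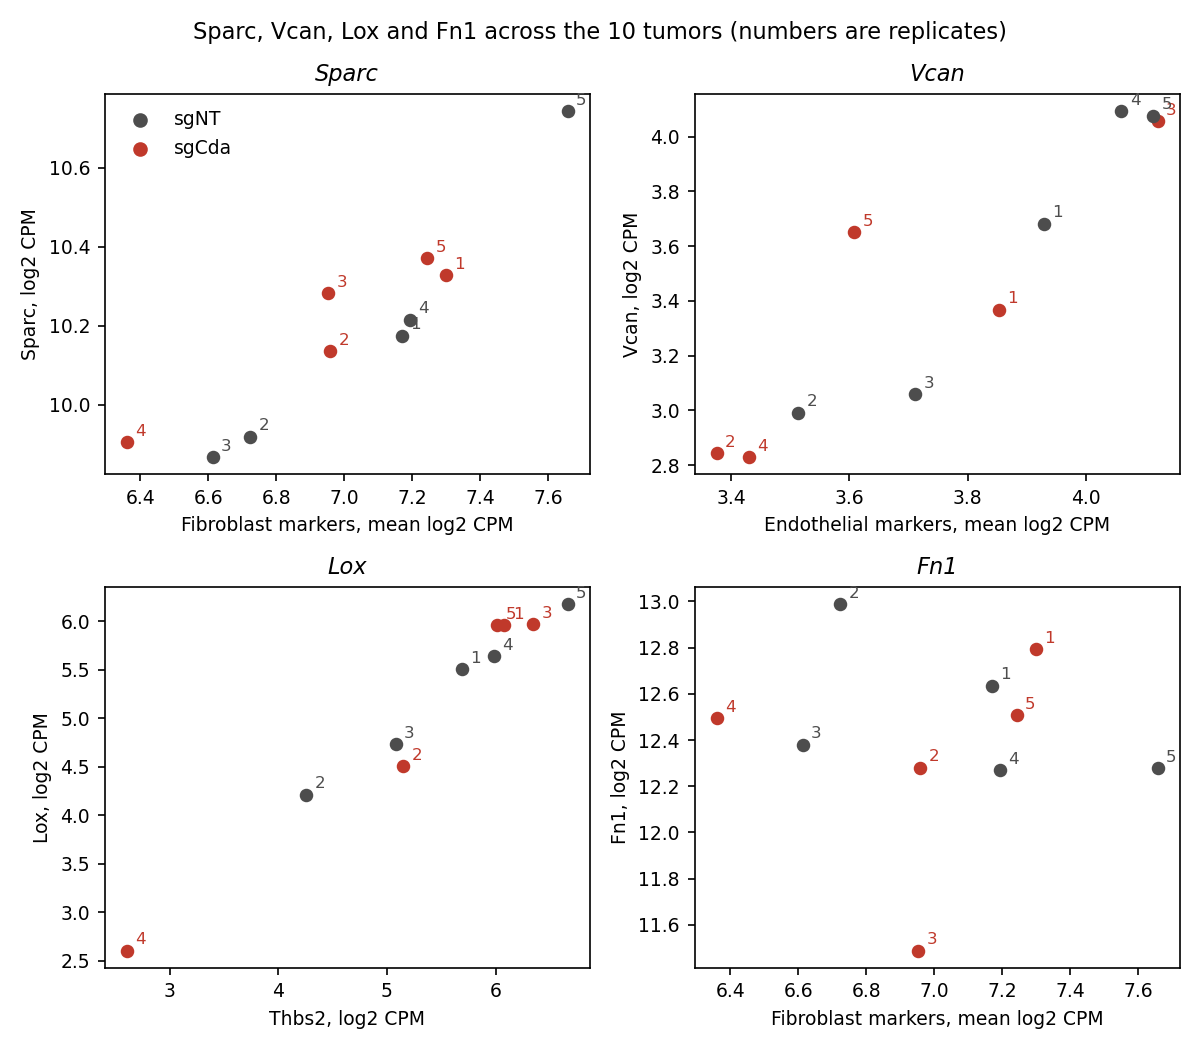
Log2 CPM of Sparc and Fn1 against the mean log2 CPM of 12 fibroblast markers, of Vcan against that of 8 endothelial markers, and of Lox against Thbs2, with a point per tumor (sgNT in grey, sgCda in red, replicate numbers beside the points). Lox rises with Thbs2 (r = 0.99) and Sparc with the fibroblast markers (r = 0.92), whereas Fn1 shows no such relation (r = −0.068).

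Other genes of the matrix pathway were counted in lists. Of 48 further matrix glycoproteins 45 were tested, and of 18 further proteoglycans 13 were, with 0 in either direction at an adjusted p under 0.05 (edgeR). Log2 fold changes were below 0 for 35 of the 45 glycoproteins (median −0.10) and for 10 of the 13 proteoglycans (median −0.094), beside 47.1% of all genes. At an unadjusted p under 0.05 there was 1 gene in each list, both lower, where 0.954% of all genes were. These were Fbln1, the gene for the matrix glycoprotein fibulin 1, with a log2 fold change of −0.33 (SE 0.11; edgeR, unadjusted p = 0.0135, adjusted 0.9996), and Hspg2, the gene for the basement membrane proteoglycan perlecan, with one of −0.26 (SE 0.11; edgeR, unadjusted p = 0.0398, adjusted 0.9996). All 5 sgCda tumors lay below the sgNT mean for Fbln1 and 4 of 5 for Hspg2, though the groups overlapped. Of the other genes named by rule in these lists, Eln (−0.99), Comp (0.43), Esm1 (−0.70), Hapln1 (0.27) and Srgn (0.12), had unadjusted p of 0.0673 to 0.649.

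Of 23 further enzymes of crosslinking and collagen processing 22 were tested, and 16 had a log2 fold change below 0 (median −0.039), beside 47.1% of all genes. At an unadjusted p under 0.05 there was 1 gene, lower in sgCda tumors, where 0.954% of all genes were. Pcolce, whose product enhances procollagen cleavage, had a log2 fold change of −0.15 (SE 0.065; edgeR, unadjusted p = 0.0463, adjusted 0.9996), with all 5 sgCda tumors below the sgNT mean. The lysyl oxidase gene Loxl4 had one of −0.30 (SE 0.14; edgeR, unadjusted p = 0.0645), and Tll1 and the prolyl hydroxylase gene P4ha2 had values of 0.30 and 0.20. All 28 receptors for matrix were tested, with 21 below 0 (median −0.083), beside the same 47.1%. At an unadjusted p under 0.05, 1 was higher and 1 lower, where 1.54% and 0.954% of all genes were. Among them the epithelial integrin gene Itgb6 had a log2 fold change of 1.19 (SE 0.44; edgeR, unadjusted p = 0.0210, adjusted 0.9996) from 0.827 ± 0.168 CPM with sgNT to 1.89 ± 1.60 CPM with sgCda (mean ± SD over 5 tumors each). The integrin gene Itga3 had one of −0.16 (SE 0.069; edgeR, unadjusted p = 0.0430, adjusted 0.9996), Itga10 one of 0.50 and the dystroglycan gene Dag1 one of −0.21. Of 6 proteases known to cleave versican 5 were tested, and Adamts5 (0.57), Adamts15 (0.34), Adamts4 (−0.21) and Adamts9 (−0.28) had unadjusted p of 0.155 to 0.648. In none of these 3 lists did a gene pass an adjusted p of 0.05 in edgeR.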

How the data were processed

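RNA from 10 s.c. tumors had been isolated with TRIzol, made into stranded poly(A) libraries and read for 50 bases. The authors aligned the reads to GRCm38 (mm10) with TopHat and Bowtie2 and counted reads per Ensembl gene with HTSeq. The strand setting and annotation release are not given in the sources used here. The deposited values are raw counts, with 5 HTSeq summary lines that were dropped here. HTSeq leaves out reads that align to several places or overlap several genes. Groups came from sample titles.

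Here, genes were filtered with filterByExpr (minimum count 10, minimum total 15), scaled by TMM and tested with edgeR's quasi-likelihood test (edgeR 4.0.16, R 4.3.3) on all 10 tumors without covariate, with Benjamini-Hochberg adjustment over all genes. The 95% intervals used the total (residual plus prior) degrees of freedom of that moderated fit. Log2 CPM used a prior count of 2. Correlations were tested with 100000 permutations. The farthest tumors left out were those of a single measure, the gene named first in the opening list of genes or the marker list. The test of the order of levels was added after seeing the data. Alternatives were DESeq2 1.42.0, limma-voom (limma 3.58.1), other scalings and filters, a replicate block and removal of each tumor. The tests were tested on simulated data.

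The members and lists were chosen with earlier results of these data known. Other genes were named by rule: those past the threshold or, where none passed, the 2 with the smallest p in each direction of each pathway list, and the 3 nearest patterns per member. Some genes that this rule names are not reported here. Symbols were found for 32608 of 37417 genes, and RefSeq promoters for 5 of the 10. A count of 3 equals 0.0760 to 0.107 CPM. Replicates are separate tumors, so p-values measure the spread between tumors. The sample labels name no separately edited cell populations. A guide effect could therefore not be told apart from a difference between edited cell populations.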

Additional observations from a re-analysis of the deposited data

Results flagged for a closer look

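Among 20 groups of 5 values, 1 value stood far off the other 4, where chance gives about 1 in 20. Bgn in sgNT replicate 5 was at 9.28 log2 CPM (619.6 CPM), against 8.75 to 8.86 log2 CPM (430.5 to 464 CPM) in the other 4 sgNT tumors. The same tumor had the highest Sparc, Lox, Thbs2, Loxl2 and Tnc of all 10 tumors, and the highest summed fibroblast markers (7557 CPM). Without it the log2 fold change of Bgn was 0.050. In the sgCda group, replicates 4 and 5 had Bgn at 602 and 628 CPM, so the value was not extreme over all 10 tumors. Over these tumors Bgn had no relation to the fibroblast markers that passed (r = 0.16, rho = 0.30, adjusted permutation p = 0.899 and 0.679).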

How the results depend on the processing

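No gene passed the adjusted threshold under any of the 17 alternatives, and no unadjusted p of the 10 genes was below 0.129. The log2 fold changes of Fn1, Thbs1, Vcan and Loxl1 were below 0 in all 17 but varied in size, and without a tumor ran from −0.29 to −0.0063, −0.086 to −0.027, −0.44 to −0.099 and −0.21 to −0.058. The other 6 genes changed sign in at least 1, in 24 of 170 values in all, and the cause was not tested. Lox was −0.23 with limma-voom and −0.13 with the replicate block. Sparc was 0.023 with limma-voom, 0.020 with the replicate block and 0.0012 with library totals. When a tumor was left out, values ran from −0.19 to 0.078 for Bgn, −0.17 to 0.30 for Lox, −0.34 to 0.21 for Loxl2, −0.081 to 0.16 for Sparc, −0.31 to 0.28 for Thbs2 and −0.039 to 0.43 for Tnc.

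The replicate numbers share only a number: deviations from group means of same-numbered tumors had correlations of −0.43 to 0.34, and for 2 of 5 numbers the tumor of the same number was the closest. With the replicate block 0 genes passed and 325 had an unadjusted p under 0.05, against 382 without it. That count was 830 of 26302 genes with a filter of 1 count in any tumor.

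Alternatives for the correlations were chosen after seeing the data. Related gene pairs numbered 8, and 8 to 11 under other scalings or with values centred on group means. They numbered 4 to 11 without a tumor. Marker relations numbered 3, and 6 with values centred on group means. They numbered 0 to 5 without a tumor, with 20000 permutations each. The permutation treated values centred on group means as free, though centring ties the values within a group. Counts after centring, of gene pairs and of marker relations, may therefore be too high. Of the 9 neighbouring pairs in the order of levels, 7 or 8 differed without a tumor.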
